A study of Mus musculus with 6 samples.

Results

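The genes described here mark the cells of brain blood vessels: 24 genes of endothelial cells and 13 genes of mural cells, the pericytes and smooth muscle cells that cover the endothelium. They were followed in 6 expression arrays of green fluorescent cells sorted from mouse cortex. Each gene was read from 1 probe set, the one brightest on average over all 6 arrays among those annotated with exactly 1 gene symbol. By this rule 35 of the 37 genes could be read, out of 18193 genes represented on the array. Ly6a and Ly6c1 had no probe set of their own in the annotation and their expression was not analysed here, which leaves 22 endothelial and 13 mural genes. The 3 reactive samples were eGFP-positive cells of TgN(hGFAP-EGFP) GFEA mice, whose reporter is under the promoter of human GFAP, sorted from the grey matter of the somatosensory cortex 5 days after a stab wound. The 3 non-reactive samples were eGFP-positive cells from the same region of uninjured Tg(Aldh1l1-eGFP)OFC789Gsat mice, in which Aldh1l1 sequences drive the reporter. All mice were FVB/N animals of 2 to 3 months, and each sample was a pool of about 15 mice. The sort left out dead cells, doublets and autofluorescent cells and used no vascular marker. Injury and reporter line coincide in this design and cannot be told apart. The series asked about galectins 1 and 3 in injured brain tissue. Vascular genes enter here as genes of another cell type in a sort made for astrocytes.

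Brain endothelial cells form the blood-brain barrier: tight junctions of claudin-5 and occludin seal the gaps between cells, efflux pumps return drugs to the blood, and carriers move nutrients and hormones across. Vascular endothelial growth factor and angiopoietin receptors govern vessel growth and stability. Pericytes are recruited through platelet-derived growth factor receptor beta, and smooth muscle cells of arterioles carry the contractile actin and myosin apparatus. Astrocytes touch these vessels with their endfeet, so the cell types lie side by side in the dissected tissue.

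Promoter sequence is shown for 4 genes on which the results turn. Cldn5 and Abcb1a were high on a single reactive array, and Itm2a and Slco1c1 had the largest positive and negative differences between the groups. Each sequence holds the 250 bases before the annotated gene start on the strand of the gene, 5′ to 3′, from RefSeq promoters of build GRCm38.p6. Capitals mark AGGAAG, a core of binding sites of ETS factors, on either strand, where the other strand reads CTTCCT. The Cldn5 window lies at chr16:18776597-18776846 on the plus strand and the Abcb1a window at chr5:8566841-8567090 on the plus strand. The Itm2a window lies at chrX:107403361-107403610 on the minus strand and the Slco1c1 window at chr6:141524104-141524353 on the plus strand.
Cldn5: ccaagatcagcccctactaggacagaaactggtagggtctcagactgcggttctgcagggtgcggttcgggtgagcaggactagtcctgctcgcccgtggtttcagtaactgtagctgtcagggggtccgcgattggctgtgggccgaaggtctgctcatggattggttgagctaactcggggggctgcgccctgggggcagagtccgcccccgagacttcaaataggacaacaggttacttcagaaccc
Abcb1a: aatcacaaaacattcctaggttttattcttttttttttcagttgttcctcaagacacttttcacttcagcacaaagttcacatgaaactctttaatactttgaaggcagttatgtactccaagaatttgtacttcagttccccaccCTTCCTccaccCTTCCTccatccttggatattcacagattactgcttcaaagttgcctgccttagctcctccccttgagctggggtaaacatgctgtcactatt
Itm2a: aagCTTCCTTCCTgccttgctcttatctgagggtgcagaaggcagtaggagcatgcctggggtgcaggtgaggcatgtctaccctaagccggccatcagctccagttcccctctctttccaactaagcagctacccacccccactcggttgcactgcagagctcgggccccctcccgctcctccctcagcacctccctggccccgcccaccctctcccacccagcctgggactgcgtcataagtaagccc
Slco1c1: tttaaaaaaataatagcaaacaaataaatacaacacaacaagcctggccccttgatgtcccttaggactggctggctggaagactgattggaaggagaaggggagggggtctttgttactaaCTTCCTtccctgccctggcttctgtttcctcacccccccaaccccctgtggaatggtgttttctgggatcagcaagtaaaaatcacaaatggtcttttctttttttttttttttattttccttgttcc
The Cldn5 window held no AGGAAG, the Abcb1a window held 2, the Itm2a window held 2 that overlap, and the Slco1c1 window held 1. A promoter was given for 26 of the 37 genes. AGGAAG stood in at least 1 window of 11 of 16 endothelial genes, or 68.8%, and of 1 of 10 mural genes, or 10%. Among 27025 genes of the promoter table the share was 32.3%. The SOX core ACAATG stood in 2 of the 16 endothelial genes (12.5%, against 12.2% of all genes), and TATAAA in 4 of the 26 genes (15.4%, against 14.3%). The CArG box of muscle genes stood in 0 of the 10 mural genes and 0 of the 26, against 1.62% of all genes. Only its strict form was searched. Of the contractile genes only Acta2 had a promoter, so the count does not cover Tagln and Myh11. These letters are not necessarily bound sites, and some genes have several windows.

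Values are log2 expression values, and a difference of 1 is a 2-fold change. Pairs of reactive arrays correlated at 0.901 to 0.921 over all probe sets, pairs of non-reactive arrays at 0.95 to 0.963, and mixed pairs at 0.889 to 0.93. The labelled cell type was checked with 15 astrocyte genes, whose mean was 9.49, 9.57 and 9.18 on the reactive arrays, against 10.98, 10.48 and 10.81. They were present in both groups, with 14 of the 15 lower in value in reactive cells. Among them 5 were called lower (Slc4a4, Gjb6, Sox9, Slc1a3 and Gja1), against 0.561% of all genes. Gfap, the filament protein of reactive astrocytes, was called higher (3.12 on the log2 scale, limma adjusted p = 0.0492). Aqp4, the endfoot water channel, was 7.39, 7.34 and 6.65 on the reactive arrays and 9.26, 8.21 and 9.29 on the non-reactive arrays, and Aldh1l1 was 8.69 to 9.16 and 9.29 to 9.72. Markers of other cells were present too: the mean of 21 microglia and macrophage genes was 9.14, 9.10 and 9.37 on the reactive and 7.36, 7.14 and 7.32 on the non-reactive arrays. Of the 21, 7 were called higher, against 0.39% of all genes. The mean of 11 oligodendrocyte genes was 9.39, 9.35 and 9.86, against 8.02, 7.88 and 8.86. The 3′ minus 5′ differences of the control probe sets of Gapdh, Actb and Pcx, which describe how far labelling ran along a transcript, averaged 4.17, 3.38 and 1.44 on the reactive and 5.19, 5.05 and 3.46 on the non-reactive arrays. The part of these differences in the results below was not tested.

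Of the 35 vascular genes, 0 were called higher and 0 lower in reactive cells by limma at an adjusted p under 0.05, where 0.951% of all genes were called, 0.39% higher and 0.561% lower. At an unadjusted p under 0.05 there were 8 of 35 (22.9%), 4 higher and 4 lower, against 15% of all genes. The higher ones were Itm2a, Egfl7, Sox17 and Tagln, and the lower ones Slco1c1, Pdgfrb, Tjp1 and Rgs5. In 8 genes every reactive array lay above every non-reactive one (22.9%, against 13.5% of all genes), and in 4 every reactive array lay below (11.4%, against 8.2%). The log2 difference was above 0 in 23 of 35 genes (65.7%, against 60.7%). Its median was 0.32 over the endothelial and 0.29 over the mural genes, beside 0.12 over all genes. Without reactive replicate 3 these medians were 0.22 and 0.26, beside 0.11 over all genes. In bulk samples like these, fewer cells of a type and less RNA per cell cannot be told apart.

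**Figure D1:**
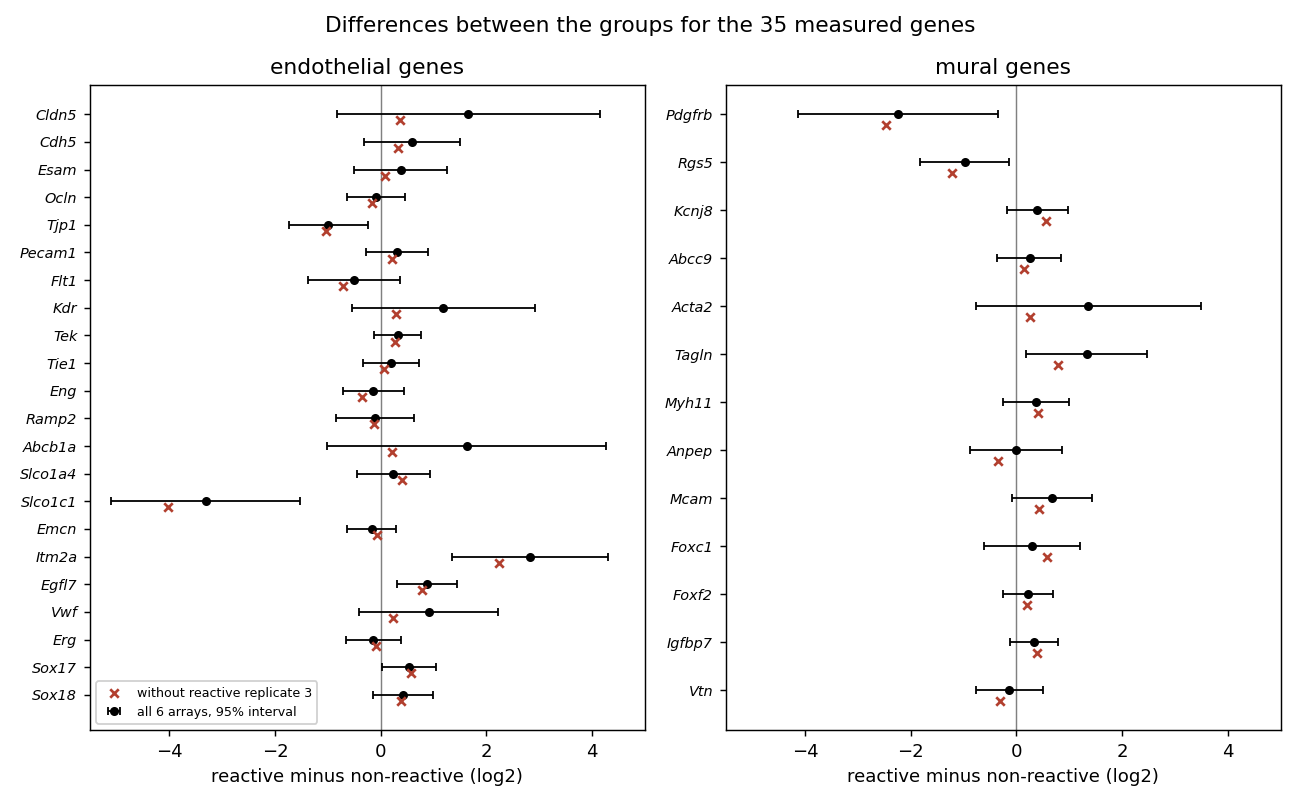
Reactive minus non-reactive difference on the log2 scale for the 22 endothelial (left) and 13 mural (right) genes, ordered by role; black points and bars are the estimate and its 95% interval from all 6 arrays, red crosses the estimate without reactive replicate 3. Most intervals span 0, and the crosses of Cldn5, Kdr, Abcb1a, Vwf and Acta2 lie close to 0.

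Many of the vascular genes were dim on these arrays. The mean over the 6 arrays was under 4.74, the middle value among all probe sets, for 17 of the 35 genes (48.6%), compared with 33.4% of all genes. In 12 genes all 6 arrays lay below 4.74: Pecam1, Tek, Tie1, Emcn, Ocln, Erg and Sox17 among the endothelial genes and Abcc9, Anpep, Foxc1, Foxf2 and Vtn among the mural ones. In 11 genes all 6 arrays lay above it: Esam, Tjp1, Kdr, Eng, Ramp2, Slco1c1, Itm2a and Egfl7, and the mural Rgs5, Tagln and Igfbp7. Low values depend on the probes as well as on the RNA, and genes near the floor of an array show compressed differences.

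Among the junction and adhesion genes, Cldn5, the main tight junction protein of the barrier, was 5.45, 5.53 and 9.36 on reactive replicates 1, 2 and 3, against 4.51, 5.61 and 5.22 on the non-reactive arrays. Reactive replicate 3 stood alone, and the other reactive arrays lay within the non-reactive range. The log2 difference was 1.66 (SE 1.04, 95% interval -0.83 to 4.16, limma adjusted p = 0.536), and 0.37 without reactive replicate 3. Cdh5, the cadherin of endothelial adherens junctions, was 4.69, 4.18 and 5.22, against 3.52, 4.63 and 4.16, and Esam, an adhesion molecule of endothelial junctions, was 6.29, 6.13 and 7.08, against 5.86, 6.71 and 5.79. In both genes reactive replicate 3 was the highest array and the groups overlapped, with differences of 0.59 (interval -0.32 to 1.51) and 0.38 (interval -0.50 to 1.25). Without that array Cdh5 differed by 0.33 and Esam by 0.09, and without non-reactive replicate 1 by 0.30 and 0.25. Pecam1, the platelet and endothelial adhesion molecule CD31 that leukocytes also carry, differed by 0.31 (interval -0.27 to 0.89). Ocln, occludin, differed by -0.08 (interval -0.63 to 0.47) at its chosen probe set. The other Ocln probe set was 3.28, 3.06 and 5.42 on the reactive arrays, against 2.39, 2.80 and 2.76, again highest on reactive replicate 3.

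Tjp1 behaved differently from these. It encodes ZO-1, a scaffold of tight junctions that also binds astrocyte connexins, and it was 8.33, 7.29 and 7.92 on the reactive arrays, against 8.90, 9.06 and 8.56 on the non-reactive arrays. Every reactive array lay below every non-reactive one. The log2 difference of -0.99 (SE 0.31, interval -1.74 to -0.24), which is 1.99-fold higher in non-reactive cells, missed the threshold (limma adjusted p = 0.257).

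Among the receptors, Kdr, the main signalling receptor for vascular endothelial growth factor, was 6.29, 5.87 and 8.73 on the reactive arrays, against 5.86, 5.41 and 6.07. Only reactive replicate 3 stood clear of the rest, as for Cldn5. The difference was 1.18 (SE 0.73, interval -0.55 to 2.92, adjusted p = 0.528), and 0.30 without that array. Flt1, the decoy-like receptor for the same ligand, was 4.95, 4.28 and 5.23, against 4.92, 5.91 and 5.16, a difference of -0.51 (interval -1.37 to 0.36), and -0.24 or -0.22 without reactive or non-reactive replicate 2. Its 4 probe sets did not share a direction: the others differed by 0.48, 0.40 and 0.03.

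The remaining receptors showed small differences. Tek, the angiopoietin receptor, was 3.24, 3.14 and 3.31 on the reactive arrays and 2.87, 2.83 and 3.02 on the non-reactive ones, without overlap but below 4.74 throughout (difference 0.32, interval -0.12 to 0.76). Its partner Tie1 differed by 0.19 (interval -0.33 to 0.72). Eng, endoglin, a co-receptor for transforming growth factor beta that macrophages also carry, was 6.29, 6.24 and 6.88, against 6.50, 6.65 and 6.67, a difference of -0.14 (interval -0.71 to 0.44). Ramp2, which makes the calcitonin-like receptor respond to adrenomedullin, differed by -0.11 (interval -0.85 to 0.64). The intervals of Tie1, Eng and Ramp2 leave room for differences in either direction, and for none of them beyond 2-fold.

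The 3 transporters differed widely among themselves. Abcb1a, the P-glycoprotein pump of the barrier, was 3.35, 3.83 and 7.80 on the reactive arrays, against 3.23, 3.31 and 3.56 on the non-reactive arrays. Its value on reactive replicate 3 lay 4.21 above the mean of the other reactive arrays, more than for any other gene of the set. The group difference of 1.63 (SE 1.11, interval -1.02 to 4.27, adjusted p = 0.565) was 0.22 without that array. The other Abcb1a probe set lay between 2.33 and 3.02 on all arrays and showed no such peak (3.02, 2.52 and 2.63 on the reactive arrays). Slco1a4, an organic anion carrier of brain endothelium, was 5.51, 4.84 and 4.67, against 4.81, 4.99 and 4.49, so the groups overlapped (difference 0.24, interval -0.44 to 0.93).

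Slco1c1, a carrier of thyroid hormone in brain endothelium that is also found in mouse astrocytes, was 5.77, 7.92 and 8.96 on the reactive arrays, against 11.06, 10.72 and 10.82 on the non-reactive arrays. The non-reactive arrays lay close together, and all reactive arrays lay well below them, with reactive replicate 1 lowest. The difference was -3.31 on the log2 scale (SE 0.75, interval -5.11 to -1.52), or 9.95-fold higher in non-reactive cells. It missed the threshold, with a limma adjusted p of 0.125 and a range of 0.0683 to 0.32 over the alternatives. Slco1c1 was the member with the largest difference in size, and its sign was kept without each array in turn (-4.02 to -2.43).

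**Figure D2:**
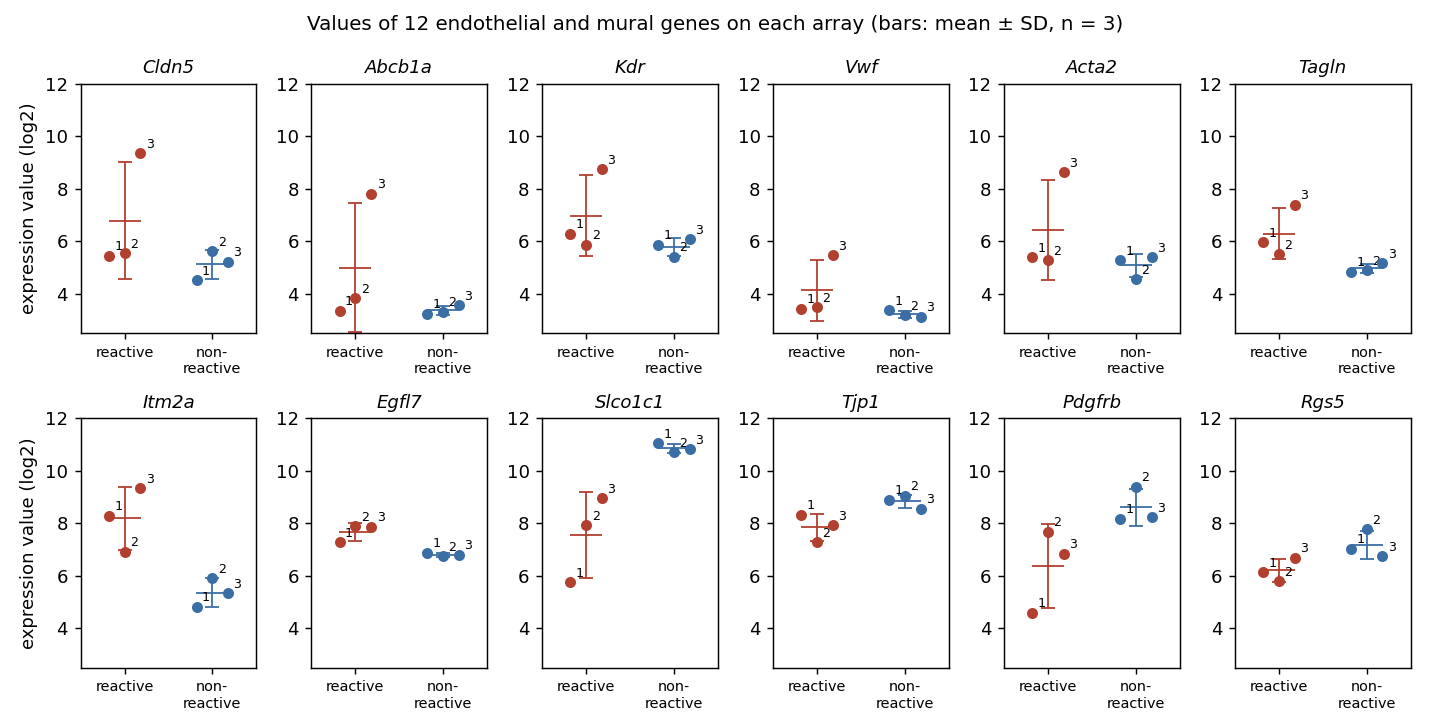
Log2 expression values (vertical axis) of 12 endothelial and mural genes on the reactive (red, left) and non-reactive (blue, right) arrays, with the replicate number beside each point and bars for the mean and SD of 3 arrays. In the top row reactive replicate 3 lies above every other array in all 6 genes; in the bottom row the groups do not overlap, with Itm2a and Egfl7 higher and Slco1c1, Tjp1, Pdgfrb and Rgs5 lower in reactive cells.

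Among surface and secreted proteins, Itm2a, a membrane protein of endothelial cells that activated T cells also express, was 8.30, 6.92 and 9.34 on the reactive arrays, against 4.82, 5.91 and 5.34. The groups did not overlap and the reactive values were spread widely. The difference was 2.83 (SE 0.62, interval 1.35 to 4.31), or 7.1-fold, with a limma adjusted p of 0.116 (0.0567 to 0.31 over the alternatives). It was 2.25 without reactive replicate 3, so it did not rest on that array alone. The other Itm2a probe set was 5.96, 5.08 and 5.54, against 5.21, 5.39 and 5.69, with a difference of 0.09 (SE 0.28), and the probe sets therefore disagreed. Of the T cell receptor subunits, Cd3e differed by 0.15 and Cd3d by 0.03. The part of T cells in the Itm2a difference was not tested.

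Egfl7, a secreted protein of endothelial cells that guides vessel formation, was 7.28, 7.90 and 7.87 on the reactive arrays, against 6.88, 6.74 and 6.80. The groups did not overlap, and the difference of 0.87 (SE 0.24, interval 0.31 to 1.44) had an adjusted p of 0.188. All 4 Egfl7 probe sets differed in the same direction (0.87, 0.60, 0.35 and 0.52). Vwf, the clotting factor stored in endothelial granules, was 3.42, 3.49 and 5.47, against 3.36, 3.17 and 3.12, with reactive replicate 3 as the only array above 4.74. Its difference of 0.91 (interval -0.40 to 2.23) was 0.24 without that array. Emcn, endomucin, a sialomucin of capillary and venous endothelium, stayed between 2.57 and 3.04 on all arrays (difference -0.17, interval -0.64 to 0.30).

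The endothelial transcription factors were dim. Sox17, a factor of arterial endothelium, was 4.37, 3.94 and 4.03 on the reactive arrays, against 3.73, 3.45 and 3.57, a difference of 0.53 (interval 0.02 to 1.04, adjusted p = 0.36) without overlap. Sox18, a relative with roles in lymphatic and blood vessels, was 4.90, 4.19 and 4.67, against 4.07, 4.15 and 4.25, a difference of 0.43 (interval -0.14 to 1.00). Neither was highest on reactive replicate 3, unlike Cldn5, Kdr and Abcb1a. Erg, an ETS factor of mature endothelium, was read in opposite directions by its probe sets. The chosen one differed by -0.14 (interval -0.66 to 0.39), while the other was 4.29, 4.85 and 4.62 on the reactive arrays, against 2.97, 3.33 and 3.56, a difference of 1.30 (SE 0.25, adjusted p = 0.0872) without overlap.

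Among the mural genes, both pericyte signalling genes were lower on all reactive arrays. Pdgfrb, the receptor through which pericytes are recruited, was 4.59, 7.68 and 6.84 on the reactive arrays, against 8.18, 9.40 and 8.24. The groups did not overlap, and reactive replicate 1 was far below the others. The difference of -2.24 (SE 0.80, interval -4.14 to -0.34), 4.72-fold higher in non-reactive cells, had an adjusted p of 0.307 and was -1.35 without reactive replicate 1. The other Pdgfrb probe set differed by -0.46 (SE 0.28). Rgs5, a regulator of G protein signalling that marks pericytes, was 6.13, 5.80 and 6.69, against 7.03, 7.78 and 6.76, a difference of -0.98 (SE 0.35, interval -1.83 to -0.13, adjusted p = 0.317) without overlap. Of its 3 other probe sets, 1 differed by -0.89, and 2 by 0.49 and 0.32.

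The 3 contractile genes of the set had differences above 0, none of them called. Acta2, smooth muscle actin, was 5.39, 5.28 and 8.63 on the reactive arrays, against 5.28, 4.56 and 5.39. Reactive replicate 3 again stood alone, and the difference of 1.36 (SE 0.89, interval -0.77 to 3.49) was 0.26 without it. The _s_at suffix of this Acta2 probe set marks probes shared by several transcripts, so signal from other transcripts is possible; the other Acta2 probe sets lay between 3.00 and 3.65 and showed no peak. Tagln, an actin-binding protein of smooth muscle, was 5.97, 5.51 and 7.39, against 4.84, 4.90 and 5.15, a difference of 1.33 (SE 0.48, interval 0.19 to 2.47, adjusted p = 0.313) without overlap, and 0.78 without reactive replicate 3. Myh11, the smooth muscle myosin heavy chain, was 4.76, 4.17 and 4.34, against 3.71, 4.18 and 4.28, and was highest on reactive replicate 1 (difference 0.37, interval -0.25 to 0.99).

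The other mural genes had estimates of 0.67 or less in size at their chosen probe sets, and the intervals of Mcam and Foxc1 reached past 2-fold. Kcnj8 and Abcc9, the pore and the sulphonylurea receptor of the ATP-sensitive potassium channel of pericytes, differed by 0.40 (interval -0.17 to 0.97) and 0.25 (interval -0.36 to 0.85). Mcam, the adhesion molecule CD146 of mural and endothelial cells, was 5.00, 5.23 and 5.86, against 4.66, 4.30 and 5.11, a difference of 0.67 (interval -0.09 to 1.43), and 0.43 without reactive replicate 3. Anpep, aminopeptidase N, which myeloid cells also carry, differed by -0.01 (interval -0.88 to 0.86). The forkhead factors Foxc1 and Foxf2, which are needed for mural cell development in the brain, differed by 0.29 (interval -0.61 to 1.20) and 0.22 (interval -0.25 to 0.70). Vtn, vitronectin, which brain pericytes secrete, differed by -0.13 (interval -0.77 to 0.51).

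Igfbp7, a secreted binding protein of vessels that endothelial cells also make, was 7.18, 7.01 and 6.91 on the reactive arrays, against 6.61, 6.74 and 6.77. The groups did not overlap, and the difference was 0.33 (interval -0.12 to 0.78). A further Igfbp7 probe set was 6.70, 6.64 and 9.26, against 6.46, 5.72 and 5.70, a difference of 1.57 (SE 0.72, adjusted p = 0.414), with the peak on reactive replicate 3 that the chosen probe set lacked. In all, 18 of the 35 genes had more than 1 probe set, and in 5 of them, Eng, Erg, Flt1, Ocln and Rgs5, the probe sets differed in sign. None of the 62 probe sets was called.

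**Figure D3:**
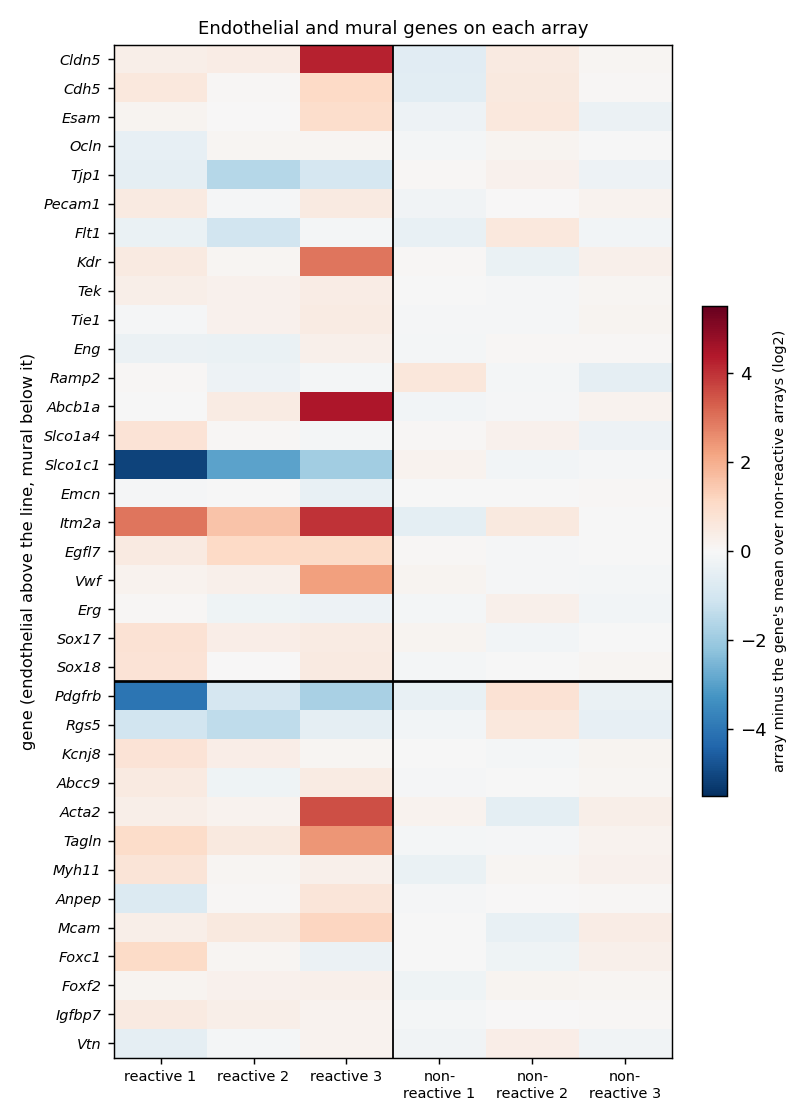
Each of the 35 genes (rows, endothelial above the black line, mural below it) on each array (columns, reactive left, non-reactive right), as the difference from the mean of that gene over the non-reactive arrays on the log2 scale; red is higher and blue lower. The reactive replicate 3 column holds the strongest reds (Abcb1a, Cldn5, Itm2a, Acta2, Kdr), while Slco1c1 and Pdgfrb are blue on all reactive arrays.

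The spread within the reactive group was described by a measure chosen after the values were seen. Reactive replicate 3 was the highest of the 6 arrays for 16 of the 35 genes (45.7%, against 22.6% of all genes), 11 of 22 endothelial and 5 of 13 mural. This was not particular to vascular genes: the same array was highest for 14 of 21 microglia and macrophage genes (66.7%) and 8 of 11 oligodendrocyte genes (72.7%). Reactive replicate 3 lay over 4-fold above the mean of the other reactive arrays (on the log2 scale) for 6 of the 35 (17.1%, against 2.58% of all genes): Abcb1a, Cldn5, Kdr, Slco1c1 and Vwf among the endothelial genes and Acta2 among the mural ones. Slco1c1 differed from the rest of these: its reactive replicate 1 was low (5.77, 7.92 and 8.96), and reactive replicate 3 lay below every non-reactive array. The median gap was 0.33 for the endothelial and 0.50 for the mural genes, beside -0.02 for all genes. The endothelial genes averaged 5.12, 4.98 and 5.96 on the reactive arrays, against 4.96, 5.16 and 5.03, and the mural genes averaged 4.85, 4.92 and 5.45, against 4.81, 4.98 and 5.00. In both classes the averages of reactive replicates 1 and 2 lay within the non-reactive range.

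Further genes of vessels were taken from longer marker lists. Of 38 other endothelial genes that could be read, 0 were called, and 30 had a difference above 0 (78.9%, against 60.7% of all genes). The median difference was 0.31, beside 0.12 over all genes. Reactive replicate 3 was highest in 22 of the 38 (57.9%), and lay over 4-fold above the mean of the other reactive arrays in 6 (15.8%). On the reactive arrays Ctla2a was 3.78, 4.02 and 7.61, Adgrf5, an adhesion receptor, was 3.46, 3.83 and 7.07, and Cav1, the caveolar coat protein, was 6.99, 5.49 and 9.45, against highest values of 3.84, 4.06 and 6.41 on the non-reactive arrays. Slc2a1, the glucose carrier of the barrier, was 8.98, 8.67 and 10.14, against 9.36, 9.92 and 9.94 (difference -0.48). Nrp1, a co-receptor of Kdr, was 8.05, 7.95 and 9.92, against 7.66, 7.41 and 8.08 (difference 0.93). Mfsd2a, a lipid carrier of the barrier, was lower on all reactive arrays (6.88, 5.25 and 7.83, against 8.25, 7.86 and 8.44, difference -1.53, limma adjusted p = 0.367). Among the reactive arrays it too was highest on replicate 3. Other genes of the list were lowest of the reactive arrays on replicate 3: Tfrc (7.82, 6.85 and 5.44), Car4 (7.40, 6.13 and 4.86) and Ptprg (6.87, 7.97 and 5.59). Ctla2a, Adgrf5, Cav1, Mfsd2a, Tfrc, Car4 and Ptprg were singled out after their values were seen.

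Of 28 other mural genes 0 were called, and 21 had a difference above 0 (75%, against 60.7% of all genes). The median difference was 0.28, beside 0.12 over all genes. Reactive replicate 3 was highest in 12 (42.9%). The brightest were Notch3, a receptor of mural cells, and Mylk, the myosin light chain kinase of smooth muscle, which differed by -0.31 (SE 0.29) and 0.37 (SE 0.33). Further contractile genes of the list, picked after their values were seen, did not share a direction. Tpm2 differed by -0.45, Cnn1 by -0.04, Pln by 0.05, Myl9 by 0.34 and Smtn by 0.43. Atp13a5, a pericyte marker singled out after its values were seen, was 3.44, 3.59 and 2.95 on the reactive arrays, against 4.71, 6.83 and 6.25. This was a difference of -2.60 (limma adjusted p = 0.103) without overlap. Other pericyte genes, also picked after their values were seen, lay on the other side of 0. Higd1b differed by 0.39, Cox4i2 by 0.42, Cspg4 by 0.32, Ndufa4l2 by 0.29 and Art3 by 0.28.

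Genes of vessel activation and signalling were not called either, 0 of 13. Icam1, the leukocyte adhesion molecule induced on inflamed endothelium, was 5.93, 7.07 and 6.79 on the reactive arrays, against 5.67, 5.88 and 4.93, and Vcam1, which astrocytes also express, was 6.87, 6.82 and 5.27, against 8.07, 7.19 and 7.62. Both genes had groups without overlap, in opposite directions (1.10, limma adjusted p = 0.304, and -1.31, adjusted p = 0.325), and both were singled out after their values were seen. In the list, 3 genes lay higher without overlap (23.1%, against 13.5% of all genes) and 2 lower (15.4%, against 8.2%). Pdgfb, also picked by its values, had the lowest limma adjusted p of the list (difference 0.90, adjusted p = 0.212). The brightest of the list, Selplg, a selectin ligand of leukocytes, and Apln, the ligand apelin, differed by 0.19 and -0.56.

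Several perivascular fibroblast genes peaked on the same array as Cldn5 and Acta2. Of 12 read, 0 were called, and reactive replicate 3 lay over 4-fold above the mean of the other reactive arrays in 5 (41.7%, against 2.58% of all genes). Col1a2, a fibrillar collagen chain, was 5.01, 4.95 and 8.54 on the reactive arrays, against 5.17, 4.79 and 5.09, and Col3a1, another chain singled out after its values were seen, was 3.52, 3.12 and 7.70, against 2.71, 3.18 and 3.09. On reactive replicate 3 the neuronal genes lay lower than on the other reactive arrays (median gap -1.09 over 12 genes), and the astrocyte genes by a smaller margin (-0.35 over 15 genes). The microglia and macrophage genes had a median gap of 0.48, the oligodendrocyte genes one of 0.58, and none of either list exceeded 4-fold. Of 12 blood leukocyte genes, 3 were called higher, against 0.39% of all genes: Lyz2 by 5.67, Cd52 by 3.52 and Plac8 by 3.31. The median difference of the list was 0.19. Among the rest, S100a8 differed by 1.40, uncalled, while Ccr2 (-0.03), Cd3d (0.03), Cd79a (-0.08) and Vcan (0.03) barely differed. The leukocyte list averaged 6.04, 5.74 and 6.36, against 4.52, 4.78 and 5.07, and 4 erythrocyte genes averaged 4.44, 4.49 and 4.84, against 4.69, 4.70 and 4.51. The part of any of these cell types in the vascular values was not tested.

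**Figure D4:**
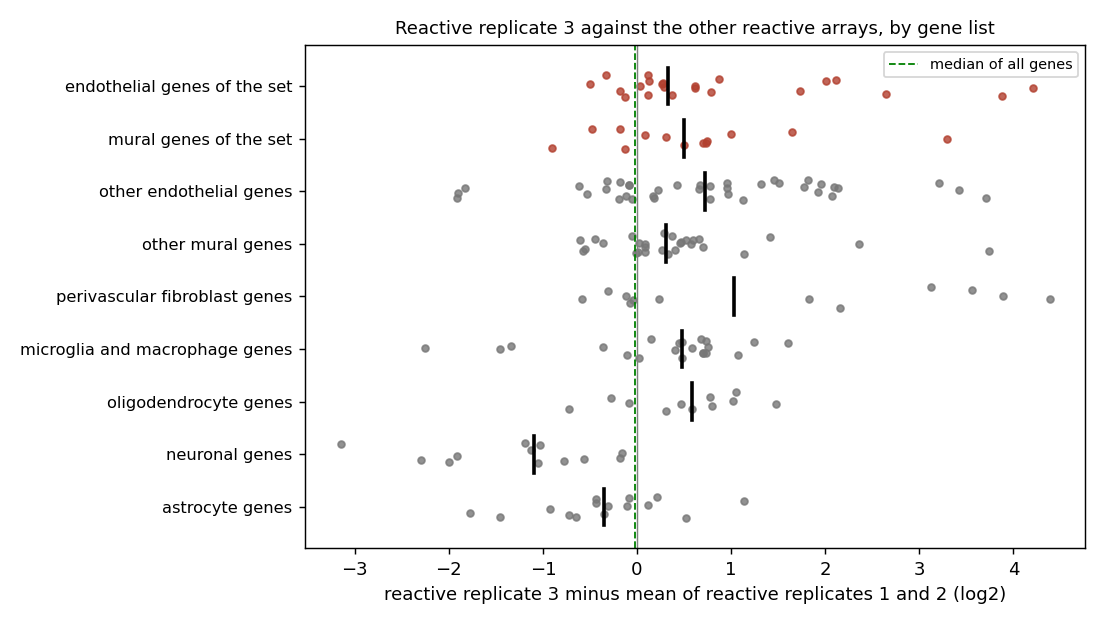
Reactive replicate 3 minus the mean of reactive replicates 1 and 2 on the log2 scale (horizontal axis), 1 point per gene, for the endothelial and mural genes of the set (red) and other gene lists (grey); black bars are list medians and the green dashed line is the median of all genes, -0.02. Vascular and perivascular fibroblast genes reach past 3, the microglia, oligodendrocyte and astrocyte genes do not exceed 2, and the neuronal genes lie below 0.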

How the data were processed

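The authors deposited log2 expression values, and the submitters' processing notes name RMA, robust multi-array averaging; version and settings: not given in the sources used here. This method usually equalises array distributions, and the 6 array medians lay between 4.65 and 4.73, so a change in total RNA per cell cannot be seen. Per the labels' protocols RNA went through 2 amplification rounds. Sex was not determined, and the labels call the pools biological replicates.

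The table held 45101 probe sets, of which 64 controls were left out. Of the other 45037, 34945 had 1 gene symbol in the platform annotation, and 18193 genes were represented by their brightest probe set. Identifiers of 34741 matched a GRCm38.p6 gene table, which changed 0 symbols. Reactive minus non-reactive was fitted on all 6 arrays with limma 3.58.1 in R 4.3.3, two-sided and without covariates. P-values were adjusted by Benjamini-Hochberg across all 45037, with 0.05 as the threshold. Errors are moderated standard errors, and intervals have 95% confidence. The fit was tested on simulated data, and the small number of arrays limits precision. The 37 genes and the other lists were chosen with earlier results of these data known. The text names every gene of the set, genes past the threshold or brightest in another list where a result uses them, the astrocyte markers Gfap, Aldh1l1 and Aqp4, and a few picked by their values, as stated there. Alternatives were other normalisations, variance models, probe set choices, a filter on low values, the replicate number as a block and each array left out.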

Additional observations from a re-analysis of the deposited data

How the results depend on the processing

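No vascular gene was called by limma under any of the 16 alternatives. The lowest adjusted p was 0.0567, for Itm2a without reactive replicate 2, and 3 to 8 of the genes had an unadjusted p under 0.05. The count of all called genes, 173, was 125 to 185 under the alternatives of scaling, variance model and probe sets. With 1 array left out it was 0 to 77: 20, 74 and 77 without reactive replicates 1, 2 and 3, and 0 when non-reactive replicate 1, 2 or 3 was dropped (unadjusted p under 0.05 in 1909 to 2127 genes). The replicate numbers did not pair the arrays: deviations of same-numbered arrays correlated at -0.0726, -0.107 and 0.0371, and no reactive array correlated best with its own number. With the replicate number as a block 0 genes were called, 2401 had an unadjusted p under 0.05, and the lowest adjusted p among the vascular genes was 0.203. After cyclic loess the median difference was 0.18 for the endothelial genes (0.32 without it) and 0.17 for the mural genes (0.29 without it). The median over all genes was not computed after cyclic loess, so a shift of all genes cannot be told apart from these changes. The mural median was 0.40 without low probe sets, where 18 of the 35 genes were tested. This filter dropped 6 of the 13 mural genes. The mural genes that it kept had the same differences as before, such as 0.40 for Kcnj8 and -2.24 for Pdgfrb. Several small differences, none of them called, changed sign. With the mean of the probe sets Eng differed by 0.06, Erg by 0.58, Flt1 by 0.10 and Ocln by 0.60, and Erg by 1.30 without suffixed probe sets, since these settings use other probe sets. Anpep differed by 0.01 with median centring and with array weights. With each array left out in turn, the differences ran from -0.34 to 0.37 for Anpep, -0.09 to 0.59 for Foxc1, -0.17 to 0.10 for Ocln, -0.35 to 0.19 for Ramp2, -0.01 to 0.41 for Slco1a4 and -0.30 to 0.05 for Vtn. Low signal limits the 12 genes that lay below 4.74 on all arrays.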
